A study of Homo sapiens with 2 samples.

Results

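The genes described here encode the constant parts of antibodies and the J chain, and were measured in a lymphoblastoid line, human B cells that grow without limit because they carry Epstein-Barr virus. They were chosen by name: the heavy-chain constant genes IGHM, IGHD, IGHG1, IGHG3, IGHA1 and IGHE, the light-chain constant genes IGKC (kappa) and IGLC1 (lambda), and JCHAIN. Every probe set whose platform annotation held at least 1 of these 9 symbols was kept, which gave 77 of the 36289 probe sets used, and 8 of the 9 genes had at least 1. No probe set used named IGHE, so the epsilon chain of IgE was not analysed here. The labels give 1 group of 2 samples, replicates 1 and 2, with 1 expression array each; there was no treatment, genotype or time point to compare, and both samples are the same line grown in RPMI1640 medium with fetal calf serum, penicillin-streptomycin and glutamine. The titles spell the line GM06690 and the growth protocol GM06990. The line stands for the B cells of 1 donor, carries a virus, and the number of B-cell clones in it is not stated in the labels. The series title refers to Hi-C, a method that maps contacts between parts of chromosomes.

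An antibody is built from a pair of identical heavy chains and a pair of identical light chains. A B cell first places its rearranged variable segment before IGHM and IGHD, making IgM and IgD, and can later join it to a gamma, alpha or epsilon gene by class switching; a given cell normally uses either kappa or lambda. On chromosome 14 the RefSeq gene table lists the heavy-chain constant genes from the mu end as IGHM, IGHD, IGHG3, IGHG1, IGHA1, IGHG2, IGHG4, IGHE and IGHA2, with the pseudogenes IGHEP1 and IGHGP between them. IGKC lies on chromosome 2, IGLC1 on chromosome 22 and JCHAIN, whose product links IgM and IgA units into polymers, on chromosome 4.

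Values are RMA signals on the log2 scale, given per array or as mean ± SD (n = 2). A signal was called above background when it passed, on both arrays, the 95th percentile of 78 measured genes of other tissues (liver, muscle, brain, eye and the like). That level was 5.72 on replicate 1 and 5.71 on replicate 2. Probe sets bind their targets with different strength, so a difference between probe sets is a difference of signals and not of transcript amounts. The array-wide correlation of the replicates was 0.997 (Pearson r across probe sets, which are not independent). The label of the line was checked against marker lists drawn up with earlier results of these data known: 7 of 8 measured B-cell genes (MS4A1 13.19 ± 0.10, CD22 8.96 ± 0.06, CD79A 11.30 ± 0.03) and 7 of 7 plasma cell genes (SDC1 9.07 ± 0.02, PRDM1 8.46 ± 0.23, XBP1 11.81 ± 0.01) were above background, with BANK1 (5.50 and 6.08) above it on replicate 2 alone. None of 8 T-cell genes (CD3D 4.94 ± 0.21, CD3E 4.49 ± 0.04, CD3G 4.50 ± 0.09), 5 NK-cell genes (NCAM1 4.84 ± 0.07, KLRD1 4.13 ± 0.08, NKG7 4.18 ± 0.07) or 6 myeloid genes (CD14 3.77 ± 0.07, LYZ 3.72, CSF1R 3.85) was above it on both arrays, and S100A9 (5.66 and 5.89) passed on replicate 2 alone. In a bulk culture, fewer cells that make a chain and less of its RNA per cell cannot be told apart.

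All 8 measured genes had at least 1 probe set above background on both arrays, but the calls rested on 6 distinct brightest probe sets, because the annotation gives many probe sets to several genes. IGHM and IGHG1 shared the same brightest probe set, and so did IGHG3 and IGHA1. Among all 16716 genes, taken at their brightest probe set with 1 symbol, 51.9% were above background, and among the 539 genes with 5 or more such probe sets it was 73.7%. With only probe sets that name 1 gene, 4 of the 6 genes that have such a probe set were above background: IGHM, IGKC, IGLC1 and JCHAIN. Without probe sets ending in _x_at or _s_at, the suffixes Affymetrix gives to sets whose probes can bind other sequences or several transcripts, 3 genes were above (IGHM, IGKC and JCHAIN).

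Most immunoglobulin probe sets were not above background. Of the 77, 22 (28.6%) were above background on both arrays, 3 on 1 array and 52 on neither, against 43.1% above on both among all probe sets. The median signal was 4.69, against 5.05 over all probe sets. Of the 77, 8 exceeded a log2 signal of 10, a share close to the 11.3% of all probe sets that did. Among these 8, 4 fell in the brightest 1% of the array. Between the dimmest of these 8 (11.50) and the next probe set (8.89) lay a gap of 2.61. Probe sets ending in _x_at or _s_at were above background in 19 of 50 cases (background 59.4%), the others in 3 of 27 (background 34.0%). The 3 were 212827_at for IGHM, 214777_at for IGKC and 212592_at for JCHAIN. At the boundary, the dimmest probe set called above was the kappa set 211643_x_at (5.73 on both arrays), and the brightest not called was 211637_x_at, which names 9 symbols (5.76 and 5.59).

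**Figure D1:**
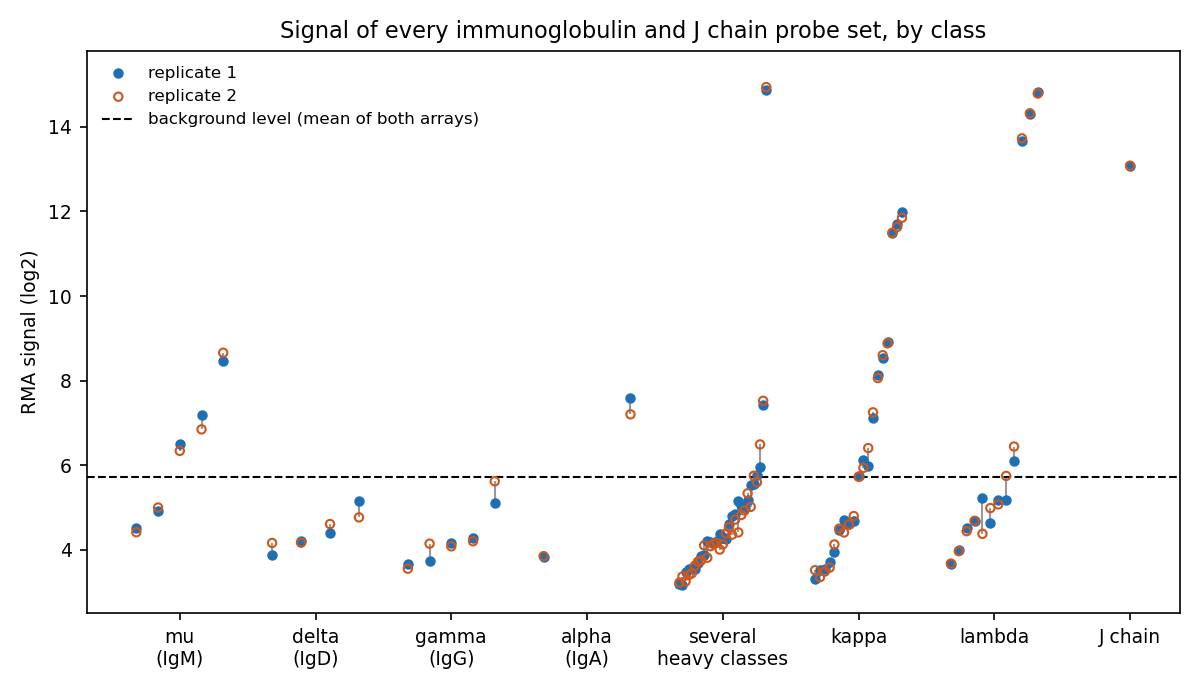
RMA signal (log2) of each of the 77 probe sets on replicate 1 (filled) and replicate 2 (open), joined by a line and grouped by the class of the constant genes they name; the dashed line is the background level. The bright signals lie in the kappa, lambda and J chain groups and in 1 probe set shared by heavy-chain classes (14.91), while the delta and gamma groups lie below the line.

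IGHM encodes the mu chain of IgM. It had 33 probe sets, more than any member but IGHG1, and 5 of them named IGHM alone. The brightest of these 5, 209374_s_at, read 8.46 on replicate 1 and 8.66 on replicate 2. Next came 212827_at with 7.19 and 6.85, then 211634_x_at with 6.50 and 6.34. These 3 were above background on both arrays, whereas 215949_x_at (4.96 ± 0.05) and 216491_x_at (4.46 ± 0.07) were below it on both. The mu probe sets thus spanned 4.10 log2 units, while none of them differed by more than 0.34 between arrays.

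The delta chain of IgD, from IGHD, was below background on all 4 probe sets that name IGHD alone. Their means ran from 4.02 to 4.96, and the brightest, 214973_x_at, read 5.16 and 4.76. IGHD was counted as above background only through 211635_x_at (5.95 and 6.49), whose annotation lists 7 heavy-chain genes, so that probe set cannot assign its signal to delta. With the background taken from 84 olfactory receptor genes, this probe set stayed above the level on replicate 2 but not on replicate 1 (level 6.11), so IGHD was no longer called.

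For the gamma chains of IgG the brightest signal and the class-specific ones parted. The probe set 211430_s_at, annotated to IGHM, IGHG1, IGHG2 and a pair of microRNA genes, read 14.87 and 14.94 and was brighter than 99.98% of all probe sets. The 4 probe sets that name IGHG1 alone were below background: 216892_at read 5.10 and 5.62, 217369_at 4.27 and 4.20, 215721_at 3.73 and 4.14, and 217222_at 3.65 and 3.55. The fifth of the gamma class, 216706_x_at, also names SKAP2, an adaptor protein gene, and read 4.17 and 4.08. IGHG3 appeared in 14 probe sets, all of them shared with other classes, and 2 of the 14 were above background. No probe set of the gamma class alone was therefore above background, and the bright signal of 211430_s_at could not be divided between mu and gamma from the annotation; the mu probe sets stood at 8.56 or lower.

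IGHA1, which encodes the alpha chain of most serum IgA, was named by 24 probe sets, never alone. A pair of them held alpha genes (IGHA1 and IGHA2) and the locus symbol IGH only. Of this pair, 217022_s_at read 7.60 and 7.20 and was above background, and 216318_at read 3.83 and 3.85 and was not. The platform annotation lists both under the same source sequence, and they differed by 3.56 log2 units. Among the 77 probe sets there were 3 such pairs with a common source, and the other two differed by 0.58 (217236_x_at over 217222_at) and 1.80 (217148_x_at over 217138_x_at, a lambda pair).

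Probe sets shared between heavy-chain classes numbered 29, of which 3 were above background on both arrays, against 53.2% of all probe sets with several symbols. All 29 named IGHG1, 28 IGHM, 22 IGHA1, 14 IGHG3 and 12 IGHD. Beside 211430_s_at and 211635_x_at, the other one above background was 214916_x_at (7.42 and 7.52), which names IGHM, IGHG1, IGHG3, IGHA1, IGHA2 and the variable gene IGHV3-23. The median of the shared probe sets was 4.20. Of the 16 probe sets of mu, delta, gamma or alpha alone, 4 were above background, 3 of mu and 1 of alpha.

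Both light chains had probe sets above background. Among all probe sets 43.1% were above it, and 59.4% of those ending in _x_at or _s_at. IGKC had 19 probe sets, 10 of them above background. The 3 brightest formed a group: 224795_x_at read 11.98 and 11.85, 221651_x_at read 11.70 and 11.63, and 221671_x_at read 11.50 on both arrays. Another 7 lay between 5.73 and 8.89, led by 214669_x_at (8.90 and 8.88), which names IGKC alone. The remaining 9 ran down to 3.41.

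IGLC1 had 12 probe sets, 4 of them above background, all 4 ending in _x_at, against 43.1% of all probe sets above background. Its 3 brightest were 214677_x_at with 14.81 and 14.79, 209138_x_at with 14.31 and 14.32, and 215121_x_at with 13.66 and 13.73; the first 2 name IGLC1 alone. The fourth, 217148_x_at, read 6.10 and 6.44, and lay 7.42 log2 units below 215121_x_at. A further probe set, 216560_x_at (5.18 and 5.75), passed the level on replicate 2 alone. IGLC1 stands here for the lambda constant genes, whose sequences are nearly alike; IGLC2 and IGLC3 were not named by any probe set used.

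Within each array the brightest lambda probe set exceeded the brightest kappa probe set. The kappa signal minus the lambda signal was -2.84 on replicate 1 and -2.94 on replicate 2 (-2.89 ± 0.07, n = 2), a 7.40-fold higher lambda signal. The direction depended on the probe sets taken. With the mean of the 3 brightest of each class it was -2.58, and with probe sets of 1 symbol -5.91. The last filter dropped the 3 brightest kappa sets, whose annotation adds only the locus symbol IGK. With the median of all probe sets of each class, taken on each array and then averaged, kappa (5.73) lay at the background level and lambda (5.10) below it. Their difference of 0.63 therefore gives no order. The difference turned to 2.97 without the _x_at sets. The brightest lambda probe set left there, 1558176_at (5.18 and 5.07), was below the background level given above. The kappa set 214777_at (8.13 and 8.06) was above it. With the level retaken without _x_at and _s_at sets (5.41 and 5.01), 1558176_at passed on replicate 2 alone. No order of kappa and lambda transcript amounts follows from these signals.

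**Figure D2:**
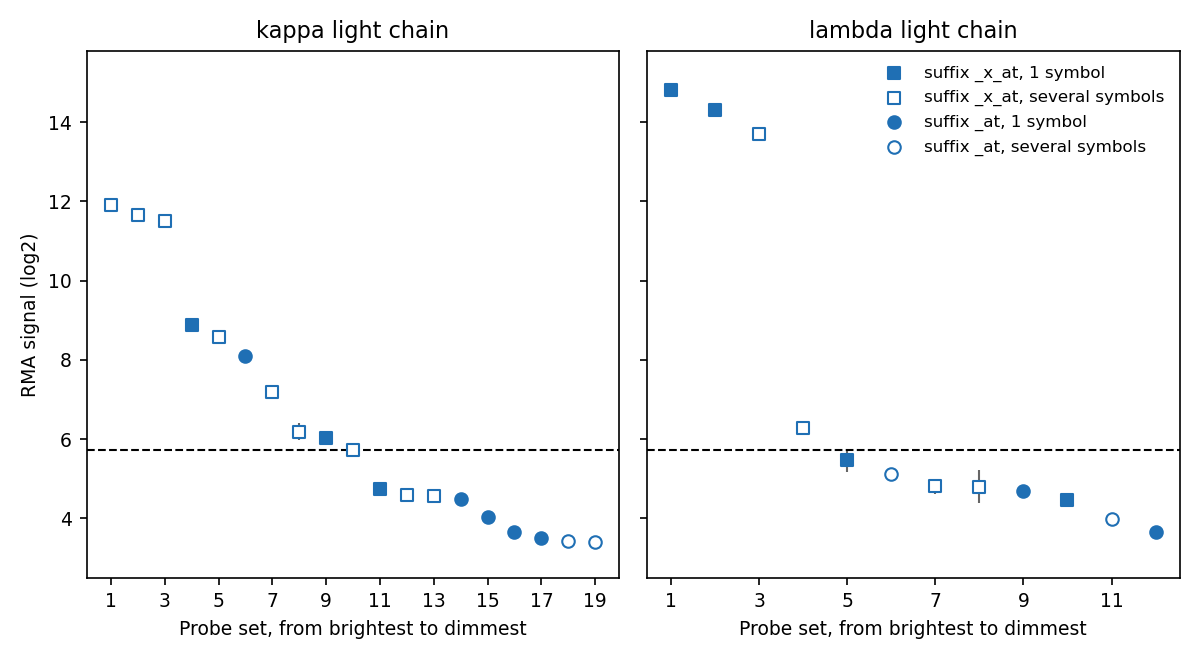
Mean RMA signal (log2) of the 19 kappa and 12 lambda probe sets, each ranked from brightest to dimmest; vertical lines span both arrays, squares end in _x_at, circles in _at, filled symbols name 1 gene, and the dashed line is the background level. Kappa falls in steps from 11.91 and lambda drops from 13.69 to 6.27 between neighbouring ranks; no lambda circle lies above the line.

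JCHAIN had a single probe set, 212592_at, which names no other gene and has no _x_at or _s_at suffix. It read 13.07 on replicate 1 and 13.08 on replicate 2 and was brighter than 98.8% of all probe sets. It stood 7.36 ± 0.02 log2 units over the background level (n = 2). Of the 8 probe sets above a signal of 10 it was the 1 without an _x_at or _s_at suffix. The 250 bases before its start, the only promoter of a member in the RefSeq-derived table (GRCh38.p14, minus strand, chr4:70666509-70666758), are shown because octamer motifs, bound by OCT factors with the coactivator POU2AF1, are known elements of immunoglobulin promoters; capitals mark the match to ATGCAAA, the first 7 letters of the octamer.
JCHAIN: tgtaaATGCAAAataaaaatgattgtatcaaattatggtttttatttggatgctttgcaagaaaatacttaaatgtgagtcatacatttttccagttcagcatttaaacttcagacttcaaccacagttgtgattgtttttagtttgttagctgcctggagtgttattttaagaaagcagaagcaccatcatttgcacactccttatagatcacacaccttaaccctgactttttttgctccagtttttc
Searched on both strands, this window held 1 match to ATGCAAA, 245 to 239 bases before the start, and none to the full octamer ATGCAAAT, which contains it. Of 35116 promoter windows of the same length, 3.94% held the first and 1.63% the second. It held 2 matches to the E-box CANNTG, against 61.8% of windows with at least 1, and none to TATAAA (10.7%) or GAGGAA (23.6%). These are letters in the reference genome, and the arrays carry no measure of binding.

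Ordered by the brightest probe set of each class, which compares different probes and classes of 1 to 19 probe sets, the signals ran from lambda (14.80 ± 0.02) through J chain (13.08 ± 0.01), kappa (11.91 ± 0.09), mu (8.56 ± 0.14) and alpha (7.40 ± 0.28) to gamma (5.36 ± 0.36) and delta (4.96 ± 0.28), with the shared mu and gamma probe set (14.91 ± 0.05) above lambda by 0.06 on replicate 1 and 0.15 on replicate 2. The order was another one by class medians of the mean signals, with mu at 6.42, kappa at 5.73, alpha at 5.62 and lambda at 4.97. The lambda value was 5.10 where the medians of each array were averaged. Kappa stood above lambda without the _x_at and _s_at sets, as given above. By the brightest probe sets, neighbours from lambda to alpha kept their order on both arrays, with mean steps of 1.16 to 3.35. Gamma and delta did not: their difference was -0.06 on replicate 1 and 0.85 on replicate 2, and both were below background.

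The replicates agreed closely for the bright members. The 8 probe sets above 10 differed by a median of 0.05 and at most 0.13 between arrays. The 22 above background differed by a median of 0.09, against 0.08 over all probe sets above background, and 11 of them were higher on each array. Over all 77 the median of replicate 2 minus replicate 1 was -0.02, against a median below 0.01 in size over all probe sets. A difference over 0.5 was seen in 6 of the 77 probe sets, 3 in each direction, against 2.63% of all probe sets. The largest were those of 216412_x_at, a lambda probe set shared with CKAP2 (5.21 and 4.38), and 216557_x_at, shared by heavy-chain classes (5.16 and 4.41), and both lay below background. Among probe sets above background only 211635_x_at differed by over 0.5 (0.54), where 0.895% of all probe sets above background did.

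**Figure D3:**
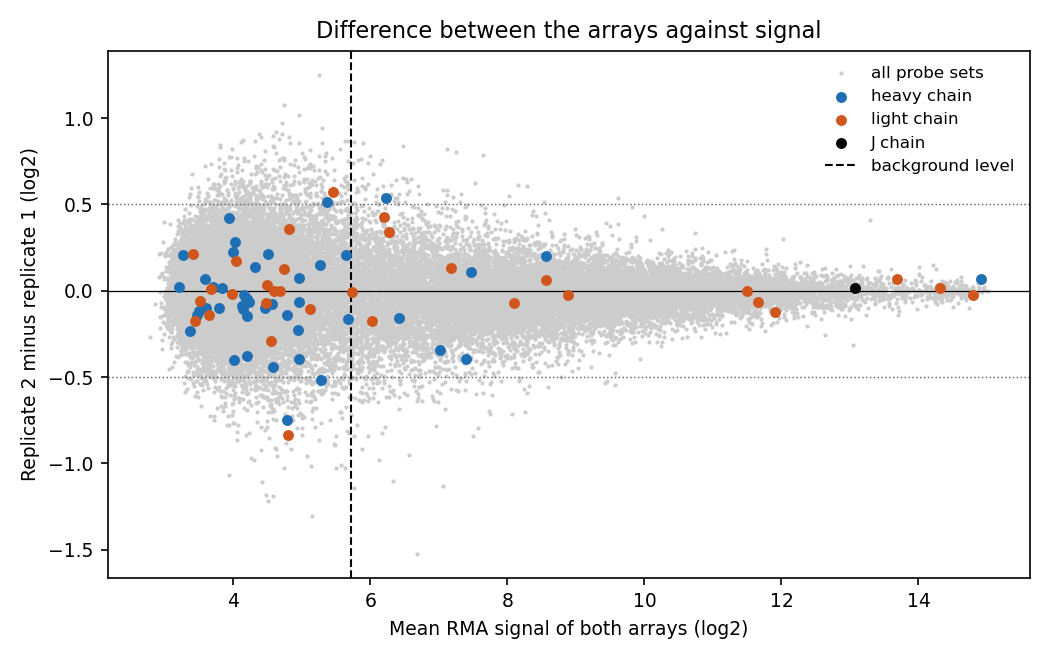
Replicate 2 minus replicate 1 (log2) against the mean signal for all 36289 probe sets (grey) and the 77 immunoglobulin and J chain probe sets (coloured); the dashed line is the background level and dotted lines mark 0.5 in either direction. The 8 bright members lie within 0.13 of 0, and the wide differences lie at or below signals of 6.22.

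Genes that build, display or bind antibodies were taken from a list of 62, of which 54 were measured and 44 were above background on both arrays (51.9% of all genes were), with a median signal of 10.12 against 6.10 over all genes. The receptor partners that carry surface immunoglobulin signals were above in 3 of 3 cases, among them CD79A (11.30 ± 0.03) and CD79B (9.59 ± 0.05). All 5 measured genes of class switching and mutation were above, including UNG, which removes uracil from DNA (9.70 ± 0.02), and the mismatch repair gene MSH6 (11.29 ± 0.01). Genes of V(D)J recombination, which assembles variable segments in precursor B cells, were above in 0 of 3 cases: RAG1 read 3.74 ± 0.09, RAG2 3.22 ± 0.05 and DNTT 4.14 ± 0.07. The group listed under the surrogate light chain, VPREB1 and IGLL1, also held VPREB3 and IGLL5, which are related to them by name. VPREB1 (3.58 ± 0.06) and IGLL1 (4.22 ± 0.23) were not above background. VPREB3 was above (6.96 ± 0.18), while IGLL5 (4.58, SD under 0.01) was not.

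Regulators of immunoglobulin transcription were above background in 7 of 9 cases. POU2AF1, the octamer coactivator, read 13.33 ± 0.01, the B-cell factor PAX5 12.13 ± 0.04 and the E protein gene TCF3 10.88 ± 0.03, whereas POU2F2, which encodes OCT2 (5.50 ± 0.04), and SPI1, which encodes PU.1 (5.26 ± 0.20), were not above. All 5 genes listed under the switch to secretion were above background. They were PRDM1 and XBP1, given above, CSTF2 (9.54 ± 0.05), HNRNPF (11.09 ± 0.03) and ELL2 (11.57 ± 0.06). ELL2 is an elongation factor that favours the secreted heavy-chain form. The count does not tell which heavy-chain form was made. Chaperones and enzymes of assembly in the endoplasmic reticulum were above in 17 of 17 cases, with HSPA5, which holds unpaired heavy chains, at 13.56 ± 0.03, HSP90B1 at 12.28 ± 0.05, ERP44 at 11.66 ± 0.07 and MZB1 at 10.44 ± 0.10. Receptors for antibodies and related surface proteins were above in 6 of 8 cases: FCRL5 read 7.85 ± 0.12, the IgE receptor FCER2 (CD23) 11.02 and the IgM receptor FCMR 10.14 ± 0.07. FCGRT, the neonatal receptor for IgG (4.97 ± 0.03), and CD72, a B-cell surface protein (4.62 ± 0.53), were not above background.

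**Figure D4:**
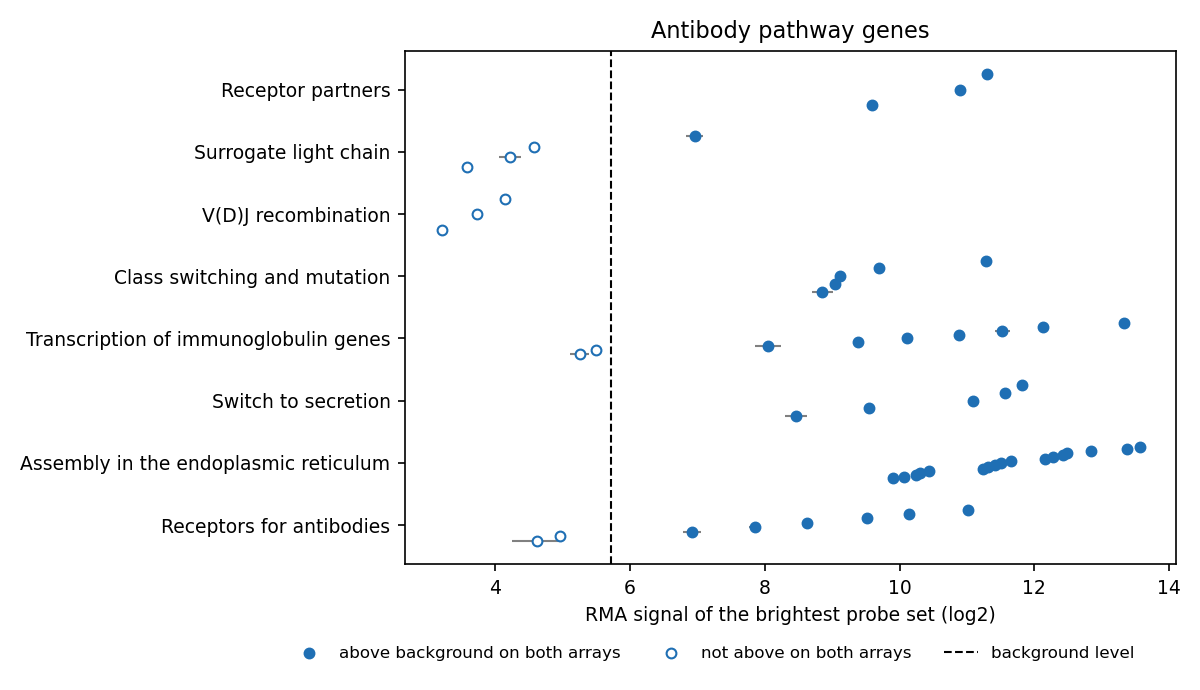
RMA signal (log2, mean of both arrays, lines span the arrays) of the brightest probe set of 54 antibody pathway genes by role; filled symbols were above background on both arrays and the dashed line is the background level. All 17 assembly genes lie at 9.91 or higher, and the 3 recombination genes lie at 4.14 or lower.

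Beyond the members, 26 probe sets named a variable, joining, lambda-like or locus symbol. Of these, 7 were above background on both arrays, a lower share than the 43.1% of all probe sets. The 3 above a signal of 10 all named lambda-locus symbols or a lambda-like pseudogene: IGLV1-44 by 215379_x_at (13.86 and 13.87) and 217227_x_at (10.64 and 10.55), and IGLL3P (11.23 on both arrays). Other probe sets of IGLV1-44 alone, such as 216573_at (3.60 and 3.81), were below background.

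The constant genes of the T-cell receptor, which are built in the same way but used by T cells, had 7 probe sets. TRBC1, the constant gene of a beta chain, was above background on all 3 of its probe sets: 211796_s_at read 8.20 and 8.06, 213193_x_at 7.16 and 7.59, and 210915_x_at 7.35 and 7.08. All 3 end in _x_at or _s_at, and 59.4% of all probe sets with these suffixes were above background. The 4 probe sets that name TRGC2 of the gamma chain read between 3.71 and 4.21. The T-cell markers CD3D, CD3E and CD3G stood below background, as given above.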

How the data were processed

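The authors deposited 1 intensity per probe set and array, from biotin-labelled RNA on Human Genome U133 Plus 2.0 arrays, made with RMA per the submitters' processing notes (version not given in the sources used here). The intensities ran from 6.29 to 33093, so they are linear, and log2 was taken here. RMA quantile-normalizes the arrays, so a change in total RNA per cell cannot be seen. With 2 arrays the precision is low, and since the labels do not say whether the cultures were separate, the spread may be technical.

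Names came from the platform annotation, updated by Entrez ID (29461 of 29493 probe sets with 1 symbol matched) from RefSeq, GRCh38.p14; 1407 probe sets had several symbols and 5389 none. The members were found by symbol. A probe set was given a class where all its constant genes belonged to it. Genes on lists were read from their brightest probe set with 1 symbol. The background level used 78 measured of 90 listed genes. With 1 group no test was run and there are no p-values. Named were every member, the first 2 measured genes of each pathway subgroup, the first 3 of each marker list and the exceptions in counts; other genes named were picked with their values in view. Members and lists were chosen with earlier results of these data known. Alternatives were other background levels, probe set filters, scalings and leaving out each array. Functions were tested on simulated data. Python 3.11.15, numpy 2.4.6 and pandas 2.3.3 were used.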

Additional observations from a re-analysis of the deposited data

How the results depend on the processing

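The calls depended mainly on the background level and on which probe sets were kept. With the 75th percentile as the background level, 37 of the 77 probe sets and 4 heavy-chain classes (mu, delta, gamma and alpha) were above background, against 22 and 2. That level (4.59 on replicate 1, 4.62 on replicate 2) lay below the median signal of all probe sets (5.05). The delta and gamma calls made with it therefore carry little weight. With the 99th percentile the values were 12 probe sets, 11 of those with 1 class (19 as reported), 5 genes (8 as reported: IGHM, IGHG1, IGKC, IGLC1 and JCHAIN remained) and 1 heavy-chain class, mu. The share of all probe sets or genes above the 75th or 99th percentile level was not taken. Counts at these levels therefore cannot be compared with the array as a whole. Without probe sets ending in _x_at or _s_at, which leaves 27, the level was retaken from 61 genes (5.41 on replicate 1, 5.01 on replicate 2). The counts were then 3 probe sets, 3 with 1 class, 3 genes and 1 heavy-chain class, mu. With probe sets of 1 symbol they were 9 probe sets and 4 genes. The kappa minus lambda signal (-2.89) became 0.63 with the median of each class (kappa at and lambda below background), 2.97 without _x_at and _s_at probe sets, -5.91 with probe sets of 1 symbol and -2.58 with the 3 brightest of each class, the last chosen after seeing the data. The J chain signal over background (7.36) was 8.47 and 5.51 at the 75th and 99th percentiles and 7.12 with olfactory receptor genes as reference. Leaving out an array gave 23 to 24 probe sets, 19 to 20 with 1 class, -2.94 to -2.84 for kappa minus lambda and 7.34 to 7.38 for J chain. The antibody pathway count lay between 33 of 43 and 47 of 54 under the alternatives run. The T-cell receptor count could not be taken without _x_at and _s_at probe sets, since none were left. No paired analysis was possible because there is 1 group. RMA gives no detection call, so a signal below the level does not show that a gene is silent.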
